A study of Mus musculus with 12 samples.

Results

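Mammary tumors that had received the STING agonist ADU-S100 were compared with tumors that had not, and the comparison was made on each of 2 backgrounds, in mice given no olaparib and in mice given olaparib. All 12 tumors of the series entered it, 6 given ADU-S100 and 6 not given it. Of the 750 genes in the table, 689 had a normalized count of at least 20 in at least 3 tumors and were tested. The filter used scaled counts, so some genes with few counts before scaling passed it. Among these 689, the difference had the same sign on both olaparib backgrounds for 217, which are the main subject here, and genes of the same pathways with opposite signs are given beside them.

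STING is an adaptor of the endoplasmic reticulum that is activated by the cyclic dinucleotide made when cGAS meets DNA in the cytosol. It recruits the kinase TBK1, which activates the transcription factor IRF3 and leads to type I interferon, and it also signals to NF-kB, which drives inflammatory cytokines and chemokines. ADU-S100 is a synthetic cyclic dinucleotide that enters this route at STING itself, and olaparib inhibits PARP, an enzyme of DNA repair.

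All tumors came from the K14-Cre;Brcaf/fTrp53f/f model of triple-negative breast cancer, in which Cre under the keratin 14 promoter removes Brca1 and Trp53 from mammary epithelium, and all were transplanted into syngeneic FVB/129P2 females, where they grew in the mammary fat pad. Treatment began at a tumor volume of 150 to 300 mm3. The 3 vehicle tumors received saline in the tumor and DMSO intraperitoneally, and the 3 ADUS100 tumors received a single intratumoral injection of 50 μg of ADU-S100 in 40 μl together with DMSO. The 3 Olaparib tumors came from mice given olaparib intraperitoneally on each of 3 days at 50 mg/kg, with intratumoral saline, and the 3 Olaparib+ADUS100 tumors, called the combination here, received both drugs. All were taken on day 3, the ages of the mice are not in the labels, and each tumor is named by the number in its label.

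Expression was measured by hybridizing 100 ng of RNA to an nCounter immune panel, in which each bound probe is counted once without amplification. Recovered totals ran from 106206 counts in the olaparib tumor 1517 to 1519471 in the vehicle tumor 1269. Totals were lower with ADU-S100 without olaparib (-1.09 on the log2 scale) and higher with it on the olaparib background (1.76). Over both backgrounds the difference in total was 0.33 (two-sided exact permutation test within backgrounds, p = 0.685, 400 regroupings, smallest possible p 0.005). The median gene differed by 0.44 on the log2 scale between ADUS100 and vehicle tumors and by -0.15 between combination and olaparib tumors. With each tumor scaled to the same median these became 0.03 and -0.01, so the counts of each gene list are given on both scales. The epithelial adhesion molecule Epcam, which marks the labelled tissue, was counted in every tumor, from 4579.5 normalized counts in 1517 to 15843 in 1510, and its difference with ADU-S100 was 0.09 ± 0.36 (SE). The leukocyte marker Ptprc, which encodes CD45, ran from 152 to 1003 normalized counts.

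No gene differed between tumors given ADU-S100 and tumors not given it at an adjusted p under 0.05 (limma, olaparib as a covariate, 0 of 689, or 0%). The smallest adjusted p was 0.968. At an unadjusted p under 0.05, 19 genes were higher (2.76%) and 0 were lower. All 19 were higher on both backgrounds, and 7 of them, Csf3r, Ccl5, Klra2, Il1rn, Ly9, Clec7a and Cxcl9, stayed under that p with each tumor left out in turn. With each tumor scaled to the same median, 12 of the 19 were under it. These signs and refits reuse the tumors that gave the p-values, so they are not further evidence. Differences over all 12 tumors below are therefore values and not calls. In sign, 176 genes were higher on both backgrounds (25.5%), 41 were lower on both (5.95%) and 472 pointed in opposite directions (68.5%). On the same-median scale, 118 genes were higher on both (17.1%) and 117 lower on both (17%), with 65.9% opposite, and 94 genes (13.6%) and 32 (4.64%) had the same direction on both scales. Across the 689 genes the differences on the 2 backgrounds were inversely related (Pearson -0.46, Spearman -0.48), which is a description over genes that share tumors, scaling and depth.

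**Figure D1:**
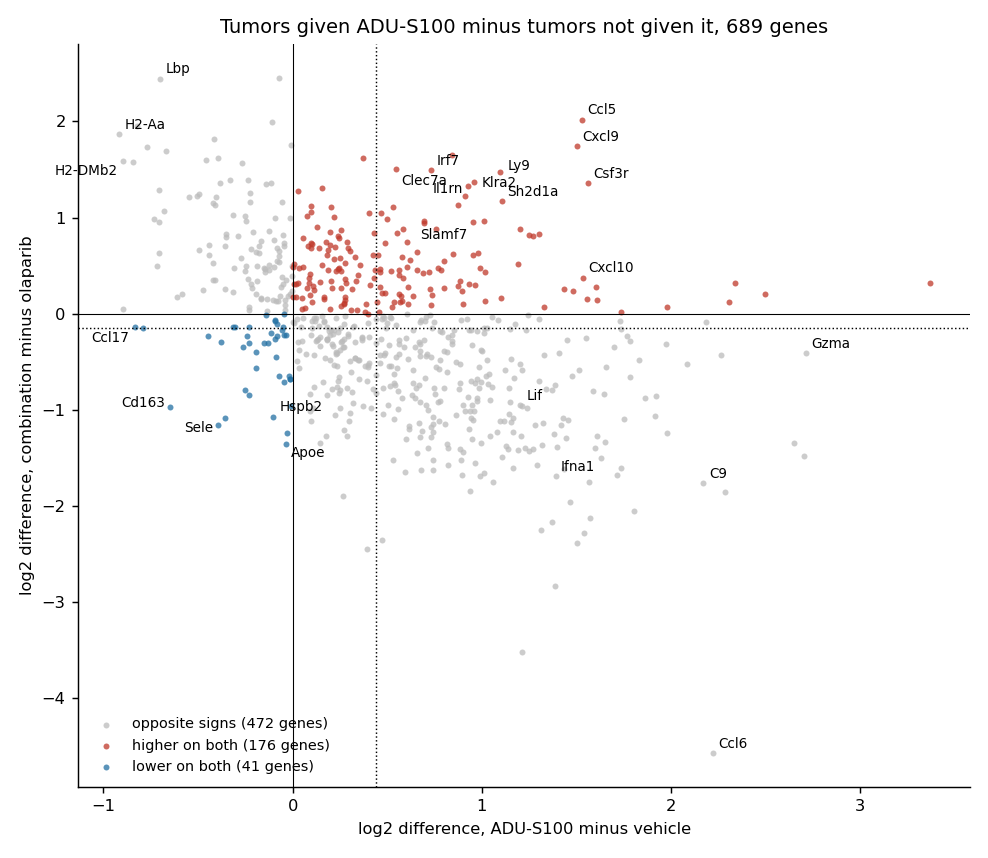
Each point is 1 of 689 genes, with the log2 difference between ADUS100 and vehicle tumors on the horizontal axis and between combination and olaparib tumors on the vertical axis (3 tumors per group), and dotted lines mark the medians of 0.44 and -0.15. The 176 genes higher on both backgrounds fill the upper right, where Ccl5, Cxcl9 and Csf3r lie farthest out along both axes, and the 41 genes lower on both reach no farther than -0.83 on the horizontal axis (Ccl17) and -1.36 on the vertical one (Apoe).

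The 176 genes higher on both backgrounds had ADU-S100 differences from 0.05 to 1.84 with a median of 0.48. The highest belonged to Il2rb, a receptor chain for IL-2 and IL-15, with 3.37 without olaparib and 0.31 with it, where 1934 normalized counts in the ADUS100 tumor 1506 stood far above every other tumor and the value without it was 1.204. Of the 689 genes, 33 were higher by more than 0.5 on both backgrounds (4.79%) and 5 by more than 1 on both (0.726%), namely Csf3r, Ccl5, Ly9, Cxcl9 and Sh2d1a. The 41 genes lower on both ran from -0.81 to -0.03 with a median of -0.30, and 1 of them, Cd163, was lower by more than 0.5 on both (0.145%). Values did not overlap between treated and untreated tumors on either background for 4 genes, all higher (0.581%), Csf3r, Ly9, Klrk1 and Itgal. On the background without olaparib alone, 96 genes lay higher without overlap (13.9%) and 7 lower (1.02%), and on the olaparib background 76 higher (11%) and 12 lower (1.74%).

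Csf3r encodes the receptor for G-CSF, the cytokine that drives the production and release of neutrophils. Its normalized counts were 17.7, 58.0 and 47.1 in vehicle tumors against 128, 173 and 59.9 in ADUS100 tumors. On the olaparib background they were 46.8, 31.4 and 25.3 without ADU-S100 against 101, 105 and 62.3 with it. All 6 treated tumors lay above all 6 untreated ones, the only gene of the 689 for which this held (0.145%), although the lowest treated tumor (59.9) and the highest untreated one (58.0) were nearly equal. The difference was 1.46 ± 0.37 on the log2 scale (SE, limma, adjusted p = 0.968), 1.56 without and 1.36 with olaparib, and 1.33 on the same-median scale. The olaparib tumor 1517 contributed 3 counts to it, and the exact Poisson 95% interval of those 3 counts, which covers counting error only, spans 6.48 to 91.9 normalized counts and so includes the lowest treated values. In a whole tumor, fewer cells of a type and less RNA per cell cannot be told apart.

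Other genes of the neutrophil list were less even across the backgrounds. The chemokines Cxcl1, Cxcl2 and Cxcl5, which draw neutrophils through CXCR2, were higher by 1.002, 1.03 and 0.72, and Camp, a granule peptide, was higher by 0.88. Of 14 genes tested, 6 were higher on both backgrounds and 0 lower, against 25.5% and 5.95% of all genes (7 and 0 on the same-median scale, where all genes had 17.1% and 17%). The median was 0.63 (0.14 over all genes), with 1.21 without olaparib and 0.02 with it, and 0.38 when 1512 was left out. Without 1517, the difference of Cxcl1 was 0.62, and without 1536 that of Cxcl5 was 0.45. The granule enzyme Mpo and the alarmin S100a8 had opposite signs on the 2 backgrounds.

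Chemokines that attract T cells and NK cells formed the list with the highest median, 0.72 over 12 genes (1.09 without olaparib, 0.40 with it, and 0.58 on the same-median scale). In this list 8 were higher on both backgrounds and 0 lower, on either scale (25.5% and 5.95% of all genes, or 17.1% and 17% on the same-median scale). Its median was 0.46 without 1506 and reached 0.87 without 1513, and it was not the highest in every such refit, since without 1517 the NK cell and cytotoxic list stood at 1.05. Ccl5, a chemokine for T cells that is induced by both interferon and NF-kB signaling, had the largest difference among them. Its normalized counts were 207, 75.8 and 51.3 in vehicle tumors and 524, 257 and 147 in ADUS100 tumors. In olaparib tumors they were 222, 83.8 and 225, and in combination tumors 1372, 462 and 446. Treated and untreated tumors were separate on the olaparib background, and without olaparib the vehicle tumor 1269 (207) exceeded the ADUS100 tumor 1513 (147). The difference was 1.77 ± 0.48 (SE, limma adjusted p = 0.968), 1.53 without and 2.02 with olaparib.

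Cxcl9, an interferon-induced ligand of CXCR3, was at 80.5, 81.8 and 26.3 normalized counts in vehicle tumors and at 692, 82.5 and 71.3 in ADUS100 tumors. In olaparib tumors it was at 140.3, 209.6 and 110.2, and in combination tumors at 244, 713 and 707. Without olaparib the difference was 1.502, with tumor 1506 far above the rest and the other ADUS100 tumors within or beside the vehicle range, while on the olaparib background the groups were separate at 1.74. Leaving out 1506 took the difference over both backgrounds from 1.62 ± 0.57 (SE, limma adjusted p = 0.998) to 1.17. The other CXCR3 ligands, Cxcl10 and Cxcl11, were higher by 0.95 and 0.85, with 1.53 and 1.44 without olaparib against 0.37 and 0.26 with it. Cxcl10 was at 162, 112 and 123 in vehicle, 1376, 253 and 156 in ADUS100, 810.5, 209.6 and 473 in olaparib and 508, 460.0 and 751 normalized counts in combination tumors. Its groups overlapped on both backgrounds, and without 1506 its difference was 0.48 and that of Cxcl11 0.39. Xcl1, which draws cross-presenting dendritic cells, was higher by 1.25, while its receptor Xcr1 had opposite signs (1.17 and -1.61).

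**Figure D2:**
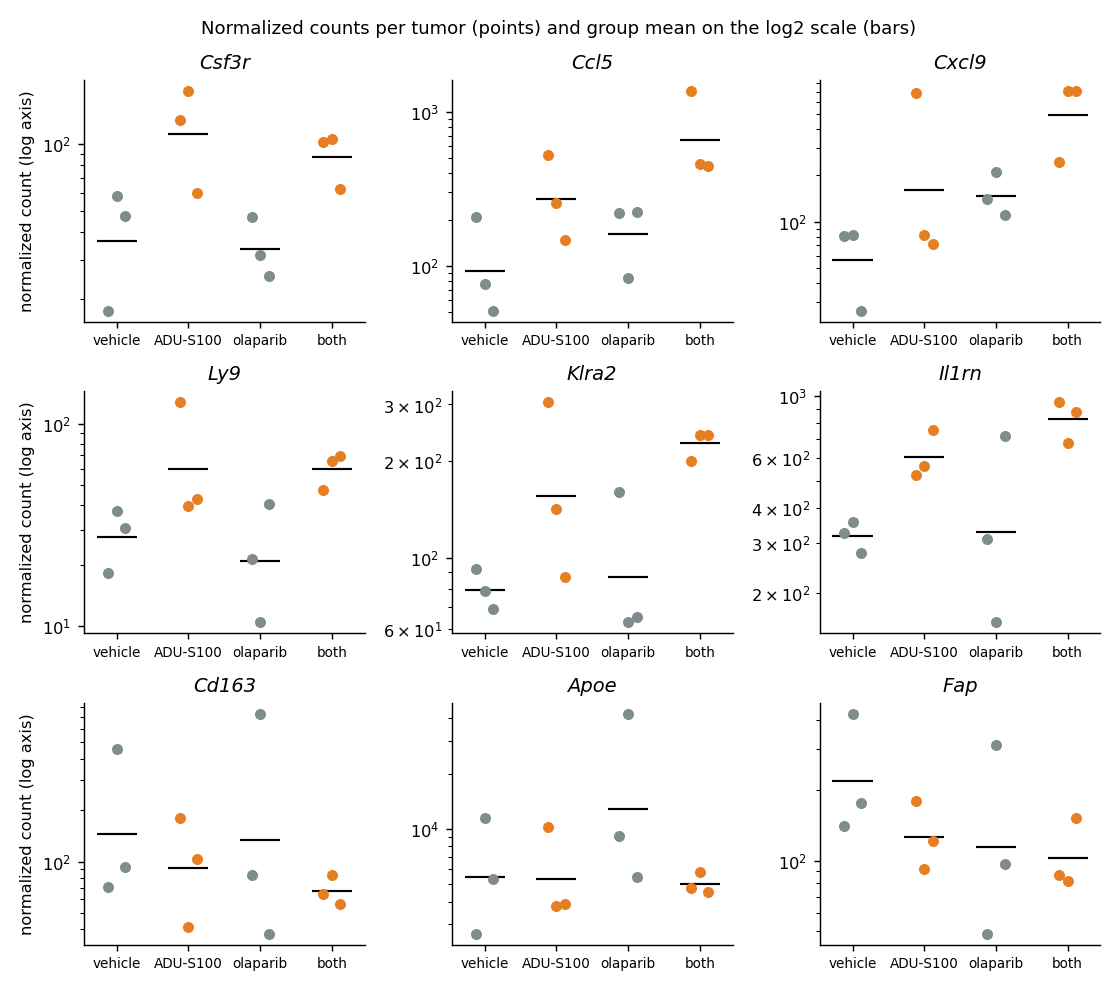
Normalized counts of 9 genes in each of the 12 tumors (points, log axis), in vehicle, ADU-S100, olaparib and combination (both) tumors, with bars at the group means on the log2 scale and tumors given ADU-S100 in orange. In the upper 6 panels the orange points sit mostly above the gray ones, completely so for Csf3r on both backgrounds, and in the lower 3 panels (Cd163, Apoe, Fap) single gray points, such as the olaparib tumor 1517 at 734 for Cd163, stand above overlapping groups.

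Among the other leading genes, Ly9, a receptor of the SLAM family, was at 18.4, 37.2 and 30.5 in vehicle and 128, 39.3 and 42.8 normalized counts in ADUS100 tumors, and at 21.4, 10.5 and 40.1 in olaparib and 47.0, 66.0 and 69.7 in combination tumors. Treated tumors lay above untreated ones on each background, narrowly so without olaparib, where 37.2 met 39.3. Its difference was 1.29 ± 0.40, and 1 count lay behind its value in 1517. Slamf7, of the same family, and Sh2d1a, the adaptor through which SLAM receptors signal, were higher by 0.95 and 1.14. Klrk1, which encodes the activating receptor NKG2D, was at 19.8, 22.3 and 9.01 in vehicle and 117, 23.6 and 24.3 in ADUS100 tumors, and at 48.7, 73.4 and 34.2 in olaparib and 87.5, 94.8 and 84.4 in combination tumors. It was separate on both backgrounds with a difference of 1.07 ± 0.42, again by a small margin without olaparib, and the difference was 0.71 when 1506 was left out. Klra2, of the Ly49 family of lectin-like receptors, was at 92.1, 78.8 and 69.3 in vehicle and 305, 141 and 87.0 in ADUS100 tumors, which overlapped at the lowest treated tumor. It was at 159.8, 62.9 and 65.4 in olaparib and 200.1, 242 and 242 in combination tumors, which did not overlap, and its difference was 1.17 ± 0.35. Itgal, the alpha chain of the leukocyte integrin LFA-1, was separate on both backgrounds with a difference of 0.61, but 76.6 and 74.2 in the ADUS100 tumors 1512 and 1513 stood barely above 73.7 in the vehicle tumor 1269, and on the same-median scale its signs were opposite. Its difference was 0.39 without 1510.

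In the T cell list, 11 of the 20 genes tested were higher on both backgrounds and 0 were lower (25.5% and 5.95% of all genes). The median was 0.57 (0.91 without olaparib, 0.29 with it). On the same-median scale 10 were higher and 0 lower (17.1% and 17% of all genes), with a median of 0.44. The deposited median was 0.36 without 1521 and 0.87 without 1517. The T cell receptor chain gene Cd3g was higher by 0.82, the coreceptor Cd8a by 0.73 and the kinase Zap70 by 1.33 (2.34 without olaparib, 0.32 with it, and 0.84 over both without 1521). The NK cell and cytotoxic list had 2 of 19 genes higher on both backgrounds, Klra2 and Klrk1 (10.5%, below the 25.5% of all genes). On the same-median scale it had 4 of 19. The list had a median of 1.31 without olaparib but -0.42 with it. Its median over both backgrounds, 0.55, was 0.23 without 1506 and 1.05 without 1517. Granzyme A (Gzma), for example, was at 9.55, 28.2 and 15.2 normalized counts in vehicle and 385, 68.8 and 51.4 in ADUS100 tumors, without overlap. In olaparib tumors it was at 64.3, 178 and 17.7 and in combination tumors at 23.5, 119.5 and 30.3, with full overlap. The difference between its 2.71 and -0.41 was not called (limma interaction, adjusted p = 0.435). The pan-leukocyte genes were on the same side as the T cell genes, with 6 of 7 higher on both backgrounds and a median of 0.61 (4 higher and 1 lower on the same-median scale, and a median of 0.37 without 1269). Their summed level ran from 598 to 1542 normalized counts in vehicle, 922 to 2939 in ADUS100, 753 to 1520 in olaparib and 1399 to 1568 in combination tumors, and its part in the lists above was not tested.

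Il1rn, the secreted antagonist of the IL-1 receptor, was at 326, 357 and 277 in vehicle and 524, 562 and 756 normalized counts in ADUS100 tumors, which did not overlap. In olaparib tumors it was at 309.8, 157 and 721 and in combination tumors at 949, 678 and 873, where only the olaparib tumor 1521 reached into the treated range. Its difference was 1.13 ± 0.35, and 0.87 without 1517. Clec7a, the beta-glucan receptor dectin-1, was higher by 1.02, with 0.54 without olaparib, where the groups overlapped, and 1.503 with it, where 131, 151 and 107 in the combination exceeded 48.7, 31.4 and 58.3. Over the 9 tumors numbered from 15 its difference was 0.65. Fpr2, a formyl peptide receptor of phagocytes, was higher by 0.85, Ltb, the membrane anchor of lymphotoxin, by 0.999 (opposite signs on the same-median scale), and Ccl2, the principal monocyte chemoattractant, by 0.99. In the macrophage list, 9 of 20 genes were higher on both backgrounds and 2 were lower (25.5% and 5.95% of all genes), with a median of 0.18. On the same-median scale 5 were higher and 5 lower (17.1% and 17% of all genes), with a median of 0.05. The deposited median was 0.08 without 1506 and 0.43 without 1517. Il1b, the cytokine that Il1rn opposes, was higher by 0.82.

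**Figure D3:**
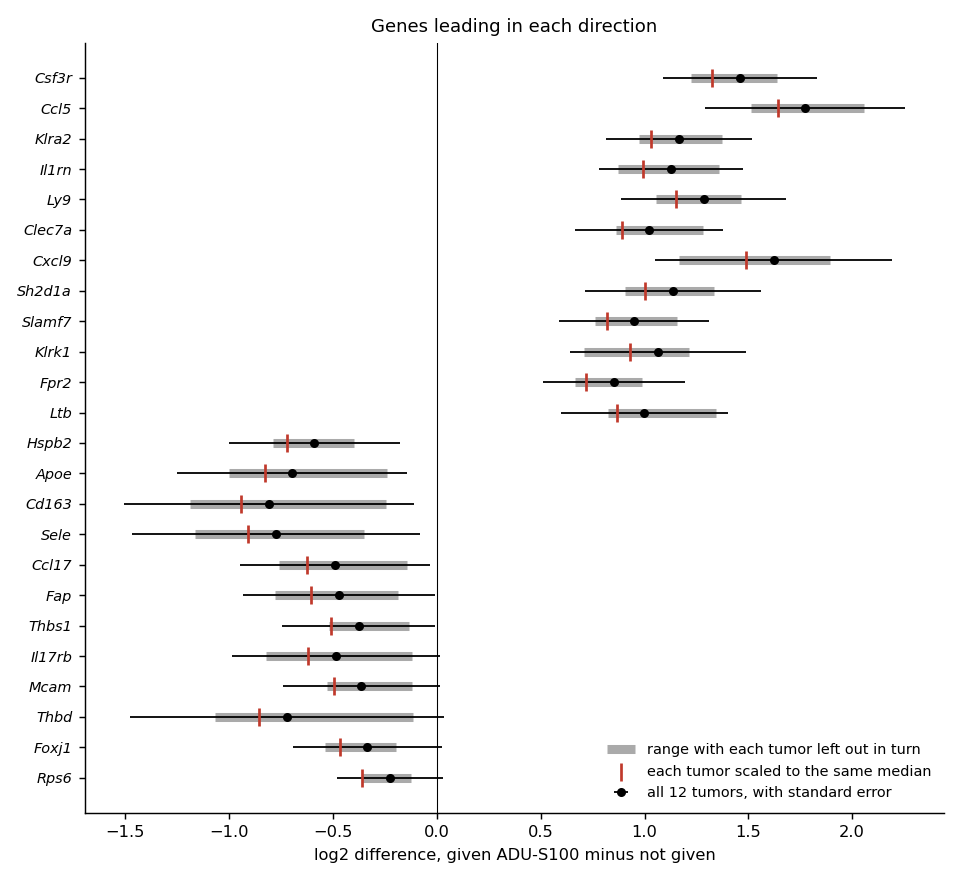
Log2 differences between tumors given ADU-S100 and tumors not given it for the 12 genes of each direction with the smallest p (black points with SE, 12 tumors), with the range when each tumor is left out in turn (gray bars) and the value with each tumor scaled to the same median (red ticks). The 12 upper genes lie between 0.85 and 1.77 and the 12 lower genes between -0.81 and -0.23, and the gray bars of the lower genes reach toward 0.

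Tmem173, which encodes STING, was at 498, 544 and 533 normalized counts in vehicle, 667, 454 and 437 in ADUS100, 793, 713 and 496 in olaparib and 654, 916 and 569 in combination tumors. Treated and untreated tumors overlapped on each background, and its difference was 0.03 ± 0.25. Tbk1 was higher by 0.53 without olaparib and lower by 0.72 with it, and Irf3 had a difference of -0.27, 0.25 without and -0.79 with olaparib. Irf7, the interferon-induced factor that amplifies type I interferon, was the leading gene of the nucleic acid sensing list, with 1.11 ± 0.62 (0.73 and 1.49). It was at 2201, 763 and 201 in vehicle and 4022, 438 and 882 in ADUS100 tumors, which overlapped, and at 1448, 702 and 1464 in olaparib against 3976, 2460.1 and 3379 in combination tumors, which did not. Of the 15 genes of that list, 5 were higher on both backgrounds (25.5% of all genes) and 0 lower, with a median of 0.06. On the same-median scale 2 were higher and 4 lower, with a median of -0.07, and the deposited median ran from -0.07 without 1536 to 0.26 without 1517. The transcript for cGAS was not analysed here.

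Of the 8 interferon ligand and receptor genes tested, 0 were higher on both backgrounds, 1 was lower on both (Ifngr1, a chain of the interferon gamma receptor, -0.10 and -0.07) and the other 7 had opposite signs. On the same-median scale 1 was lower too, Ifnar1 in its place. Ifnb1 was at 13.6, 10.4 and 9.70 normalized counts in vehicle and 28.5, 31.4 and 19.97 in ADUS100 tumors, without overlap, and at 46.8, 52.4 and 12.4 in olaparib and 15.4, 9.07 and 20.5 in combination tumors. Its differences were 1.16 and -1.09, with 0.04 over both. Ifna1 behaved alike at 1.39 and -1.69, and Ifna2 and Ifna4 had 0.93 and 1.21 without olaparib and -1.21 and -1.28 with it. Before scaling, Ifnb1 was counted between 5 and 25 times per tumor and Ifna1 between 8 and 17 times. The factor by which each tumor's counts were scaled, from 0.589 in 1521 to 10.5 in 1517, differed by 1.17 without olaparib and by -1.49 with it on the log2 scale, the same signs as these genes, and its part in them was not tested. Members of the Ifna family are so alike that their probes may share signal, which leaves their values uncertain. Ifng, counted between 4 and 13 times per tumor, did not pass the filter, so some tested genes were counted about as rarely as genes that failed. In the interferon-stimulated list, 12 of 25 genes were higher on both backgrounds and 0 lower (25.5% and 5.95% of all genes). Its medians were 0.34 on each background (0.44 and -0.15 over all genes). That list was led by Oas2 (0.83), and Isg15 had 0.34, values that were 0.39 without 1536 and 0.03 without 1517. The median over both backgrounds, 0.39, was 0.17 without 1506 and 0.62 without 1269. On the same-median scale, 7 of the 25 were higher on both and 1 was lower on both (17.1% and 17% of all genes). The median there was 0.26 (-0.07 without olaparib, 0.49 with it). The receptor subunits Ifnar1 and Ifnar2 differed by 0.08 and 0.33.

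**Figure D4:**
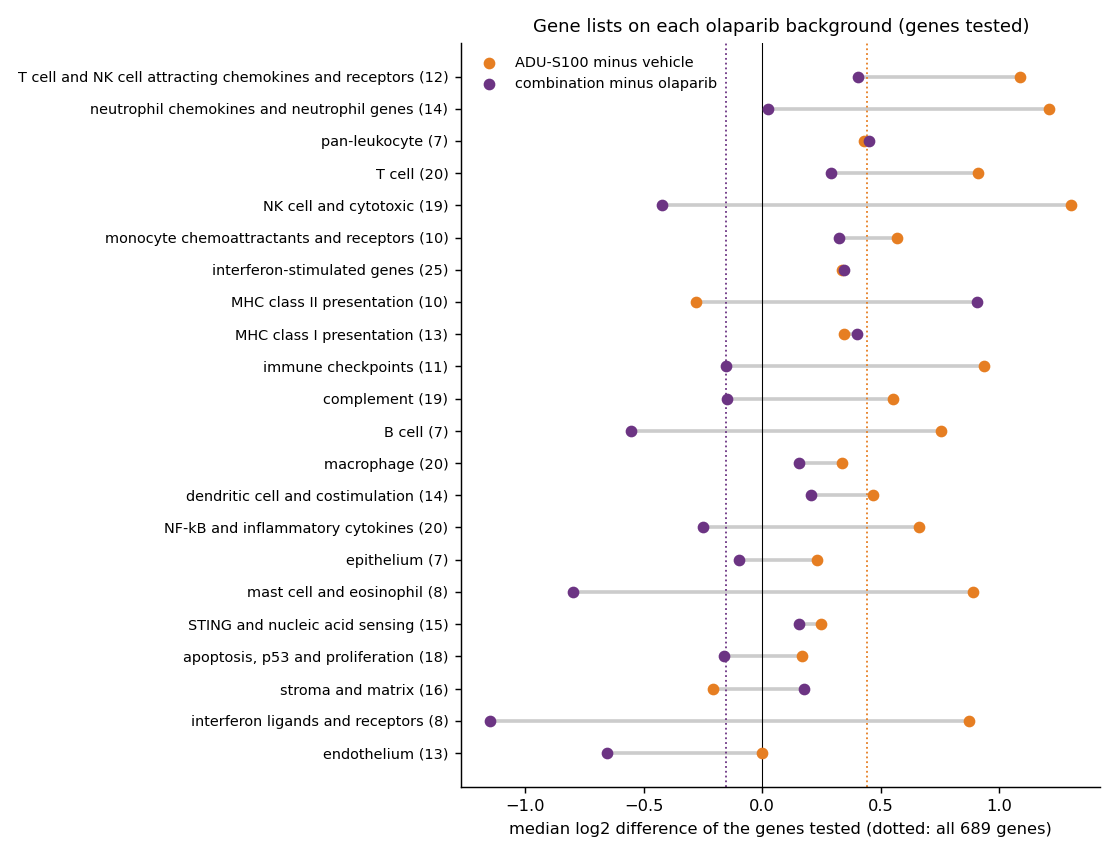
Median log2 difference of the tested genes of each list without olaparib (orange) and with it (purple), with the number of genes in brackets and dotted lines at the medians of all 689 genes (0.44 and -0.15). The chemokine and T cell lists lie right of 0 on both backgrounds, while the interferon ligand list (0.87 and -1.15), the NK cell and cytotoxic list and the class II list have opposite signs.

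Promoter sequence was read for the leading genes, because the factors that act downstream of interferon and of NF-kB signaling bind known motifs. RefSeq windows from 250 bases before to 50 after each start (GRCm38.p6) were matched for 9 of the 12 leading higher genes. The interferon-stimulated response element (ISRE) core, on either strand, was in 0 of these 9 genes, against 51 of 554 genes of the table (7.48% of their promoters, and 3.44% of all 32851 promoters). The NF-kB motif, also on either strand, was in 2 of the 9, Il1rn and Ltb, against 36 of 554 (6.01% of their promoters, and 1.63% of all). The Il1rn match is a single site, 51 bases before one of its starts and at base 30 after another. Counts over 9 genes are too small to weigh against these shares. Cxcl10, further down the list, holds the ISRE core 213 bases before its start. At other distances, Ifna1 (1 match), Ifna2 (2) and Ifna4 (2), which had opposite signs on the 2 backgrounds, hold it too. Of these, Cxcl10 is shown because it was higher on both. The 250 bases before the starts of Ltb (chr17:35194257-35194506, plus strand, motif on the opposite strand 87 bases before the start) and Cxcl10 (chr5:92348890-92349139, minus strand), and 30 bases around the site of Il1rn (chr2:24345310-24345339, plus strand, 51 bases before one of its starts), are shown 5′ to 3′ with the motif, ISRE in Cxcl10 and NF-kB in the others, in capitals.
Ltb: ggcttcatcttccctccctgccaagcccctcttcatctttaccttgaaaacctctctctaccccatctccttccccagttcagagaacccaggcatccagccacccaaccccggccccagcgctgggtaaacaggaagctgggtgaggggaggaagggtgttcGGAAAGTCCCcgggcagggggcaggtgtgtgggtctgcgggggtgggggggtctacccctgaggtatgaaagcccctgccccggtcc
Cxcl10: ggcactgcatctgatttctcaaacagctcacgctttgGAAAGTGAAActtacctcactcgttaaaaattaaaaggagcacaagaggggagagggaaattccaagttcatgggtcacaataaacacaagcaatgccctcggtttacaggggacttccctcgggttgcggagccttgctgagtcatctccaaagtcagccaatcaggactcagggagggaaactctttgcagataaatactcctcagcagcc
Il1rn: ggaaatatgaGGGTTTTTCCgcttctgaca
The 12 leading lower genes were matched for 7, and 0 of them held either motif. A match is a run of letters and not evidence of binding.

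Antigen presentation genes followed neither direction throughout. In the class I list, 7 of 13 genes were higher on both (25.5% of all genes), among them Psmb8 (0.52) of the immunoproteasome and the peptide transporter Tap1 (0.42). On the same-median scale, however, the list had only 1 (17.1% of all genes). Its median of 0.35 was 0.17 without 1536 and 0.54 without 1269, and Tap1 was at 0.17 and 0.76 in the same refits. In the class II list, 2 of 10 were higher on both, H2-Ob and the regulator Ciita (2 on the same-median scale too), and the median was -0.28 without olaparib and 0.91 with it. H2-Aa, a class II alpha chain, was at 4678, 6164 and 3474 normalized counts in vehicle and 4683, 1770.2 and 1789 in ADUS100 tumors. It was at 5796, 3385 and 4288 in olaparib and 15231, 18905 and 14123 in combination tumors. Treated tumors were far above untreated ones with olaparib (1.86) and mostly below them without it (-0.92). H2-DMb2, a chain of the peptide-loading chaperone, had the smallest p of the 689 for a difference between the backgrounds, with -0.90 without olaparib, 1.59 with it and no overlap on either. That difference was 2.49 ± 0.55 (SE, limma interaction, adjusted p = 0.346). Lbp, the lipopolysaccharide-binding protein, followed the same pattern (-0.70 and 2.45), and the complement component C9 (2.17 and -1.77) and the IL-22 receptor chain Il22ra1 (1.54 and -2.29) the reverse. The interaction called 0 of 689 genes, with 13 higher (1.89%) and 62 lower (9%) at an unadjusted p under 0.05. That balance turned with the log2 scaling factor as a covariate, to 64 higher and 5 lower, and was even by quantile normalization (49 and 49) and with a block for the 12 and 15 number series (10 and 11), with 0 genes called in each.

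Neither background gave a call by itself. ADUS100 against vehicle had 32 genes higher (4.64%) and 1 lower (0.145%) at an unadjusted p under 0.05, and the combination against olaparib had 31 higher (4.5%) and 19 lower (2.76%), with 0 at an adjusted p under 0.05 in each (limma). Leaving out the olaparib tumor 1521, which leaves 1510 and 1517, gave 12 genes higher and 42 lower of 689 on the olaparib background by the same test. Of these, 2 of the 12, Il1rn (1.90) and the phagocyte oxidase subunit Cybb (1.72), and 0 of the 42 were among the genes that had the same sign on both backgrounds. Over all genes, 25.5% were higher on both and 5.95% lower on both. The genes lower there included Ifna1 (-2.49), Ifna2 (-2.39) and Ifnb1 (-1.73). For Ifna1 and Ifnb1 the few counts per tumor given above limit these values, and counts of 1517 were scaled by 10.5.

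Genes lower on both backgrounds were fewer on the deposited scale, though about as many as the higher ones on the same-median scale. The 12 with the smallest p ran from -0.81 to -0.23 with 0 of them separate between treated and untreated tumors on either background. Cd163, the scavenger receptor for hemoglobin on macrophages, was at 70.9, 455 and 92.8 in vehicle and 179, 41.3 and 104 normalized counts in ADUS100 tumors. It was at 83.8, 734 and 37.7 in olaparib and 64.8, 83.3 and 56.6 in combination tumors. The vehicle tumor 1529 and the olaparib tumor 1517 held the high values, and without 1517 the difference went from -0.81 ± 0.70 to -0.25. Leaving out 1517 also moved the median of all 689 genes from 0.14 to 0.33, and with each remaining tumor scaled to the same median (a setting added after seeing the data) Cd163 was at -0.61. Apoe, an apolipoprotein made by macrophages, was at 42347 in 1517 and between 2667 and 11424 in the other tumors, and its difference of -0.70 became -0.24 without 1517, or -0.61 with the same median. The fibroblast protease Fap (-0.47), thrombospondin 1 (Thbs1, -0.38), the CCR4 ligand Ccl17 (-0.49) and the small heat shock protein Hspb2 (-0.59) also overlapped between groups. Leaving out 1517 took Fap to -0.19 (-0.55 with the same median), leaving out 1270 took Thbs1 to -0.13, and leaving out 1529 took Ccl17 to -0.14. For 9 of the 12 the difference came nearest to 0 when 1517 was left out, and all 12 stayed below 0 with any single tumor removed. Without 1517 and with the same median, they lay between -0.81 (Thbs1) and -0.48 (Mcam and Thbd).

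Endothelial genes were the list with the most members lower on both backgrounds, 6 of 13 (5.95% of all genes), with 2 higher, a median of -0.27 and 9 lower on both on the same-median scale. The members were Sele, which encodes the E-selectin that holds leukocytes on inflamed vessels (-0.78), the angiopoietin receptor Tek (-0.64), Vwf (-0.54), Tie1 (-0.38), Pecam1 (-0.34) and Angpt1 (-0.27). Pecam1, the junctional molecule CD31, was at 8625 normalized counts in 1517, against 105 and 299.9 in the other olaparib tumors and 388, 387 and 468 in combination tumors. The summed level of the list ran from 3611 to 12068 in vehicle, 4984 to 10946 in ADUS100, 2539 to 31585 in olaparib and 3115 to 4018 in combination tumors. Without 1510, the median of the list was -0.61. Without 1517, the tumor with the fewest counts, the median of the list was 0.37, against 0.33 over all genes. In that refit Pecam1 was at 0.53, Tek, Vwf, Tie1 and Angpt1 were between 0.15 and 0.41, and Sele was at -0.35. With the same median and without 1517, the median of the list was 0.01, Pecam1 was at 0.16, the other 4 were between -0.21 and 0.05, and Sele was at -0.72. Epithelial genes had 0 of 7 members in the same direction on both backgrounds, but 1 higher and 3 lower on the same-median scale, and stromal genes had 2 higher and 4 lower of 16 (0 and 4).

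Over all genes, 25.5% were higher on both backgrounds and 5.95% lower, and on the same-median scale 17.1% and 17%. Of the 10 monocyte chemoattractants and their receptors, 7 were higher on both backgrounds and 0 lower (median 0.44), and on the same-median scale 4 and 0. Their median was 0.25 without 1269. Among dendritic cell and costimulatory genes, 7 of 14 were higher, led by the CCR4 ligand Ccl22 (0.74), and 2 were lower, among them Ccl17, which binds the same receptor (4 and 2 on the same-median scale). Their median of 0.16 was 0.04 without 1521 and 0.35 without 1517. The immune checkpoints had 3 of 11 higher and 0 lower on either scale (median 0.31, and 0.13 without 1521 or 0.71 without 1517), led by Cd274, which encodes PD-L1, at 0.62 ± 0.40 and at 0.39 without 1521. Complement genes had 4 of 19 higher and 0 lower (5 and 2 on the same-median scale), and the NF-kB and inflammatory cytokine list, led by Il1b, had 3 of 20 higher and 0 lower (3 and 2). The apoptosis, p53 and proliferation list had 3 of 18 higher and 2 lower (1 and 5), against 25.5% and 5.95% of all genes. Mast cell and eosinophil genes had 0 of 8 higher and 1 lower on either scale. For B cells, 7 of 16 genes passed the filter, with 0 in the same direction on both backgrounds (1 higher and 1 lower on the same-median scale).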

How the data were processed

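RNA from 12 bulk tumors was hybridized to the nCounter PanCancer Immune panel. The deposited signal values are normalized counts, which the authors describe as made with nSolver 4.0 by quality control, background correction and scaling to positive controls and housekeeping genes. How far background was removed from the low values was not tested. The smallest low values of each tumor are multiples of 1 step, and dividing by it gave the counts before scaling (tolerance 0.01 of a whole count). Values were analyzed as log2(value + 1) for the 689 of 750 genes with at least 20 in at least 3 tumors. In tumor 1517, 3 counts made a value of 31.4, so few counts passed this limit there. Differences came from limma 3.58.1 (R 4.3.3) with ADU-S100 and olaparib as terms, and from a fit of 4 group means for each background and for the interaction, with Benjamini-Hochberg adjustment over all 689 genes. All differences are on the log2(value + 1) scale, which understates the change of low genes.

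Genes were named by rule: the 12 genes of each direction with the smallest p among those with the same sign on both backgrounds, the STING and interferon genes, the highest and lowest member of each list and the 5 genes with the smallest interaction p. Others are examples of a list chosen after their values were seen. The genes and lists were chosen with earlier results of these data known. Alternatives covered the pseudocount, the filter, the scaling, the background, the model, the methods' t-test, counts in edgeR 4.0.16 and each tumor left out. The labels number the tumors without saying what the numbers mean, so p-values measure the spread between these tumors. Symbols matched current RefSeq symbols for 736 genes and older ones for 8, with 6 unmatched. Promoters are RefSeq's on GRCm38.p6. The interval of a count is the exact Poisson 95% interval. Scripts were tested on simulated data, and Python 3.11.15 with matplotlib 3.10.9 drew the figures.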

Additional observations from a re-analysis of the deposited data

Results flagged for a closer look

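For 7 genes (1.02%) treated and untreated tumors did not overlap on either background but pointed in opposite directions. The difference of the differences, with olaparib minus without, was 2.49 for H2-DMb2, 0.62 for the stress kinase kinase Map2k4, -1.03 for Mapk8, which encodes JNK1, -1.26 for Tbk1, -2.17 for Lif, a cytokine of the IL-6 family, -2.98 for the prostaglandin D2 receptor Gpr44 and -3.94 for C9. limma's test of this difference called 0 of 689 genes, with 75 at an unadjusted p under 0.05, and edgeR called 0. Lif was at 321, 469.8 and 389 normalized counts in vehicle and 795, 1466 and 626 in ADUS100 tumors, and at 908, 597 and 509 in olaparib and 441, 204 and 414 in combination tumors. C9 was counted between 3 and 15 times per tumor before scaling. Like Mapk8, Tbk1, Lif and Gpr44, it had the signs of the scaling factor, and the part of the factor was not tested.

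Thbd, which encodes the endothelial anticoagulant receptor thrombomodulin, was at 296 normalized counts in the ADUS100 tumor 1506 and between 67.1 and 91.5 in the other tumors given ADU-S100. It was 1 of 48 sets of 6 tumors checked for a single value far from the rest, a check that chance passes in about 1 of 20.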

How the results depend on the processing

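No alternative called a gene for ADU-S100 over both backgrounds at an adjusted p under 0.05, edgeR and the methods' t-test included, and at an unadjusted p under 0.05 between 4 genes (the 9 tumors numbered from 15, chosen after seeing the data) and 124 (tumor weights) were higher. The smallest adjusted p in limma was 0.095, with tumor weights, whose estimate stopped before convergence. Tumor weights also gave 53 genes higher and 57 lower on the olaparib background, and 30 and 83 for the interaction. Refits that dropped a single tumor gave 0 to 12 genes higher and 0 to 42 lower on the olaparib background and 0 to 9 and 0 to 77 for the interaction, with all calls coming without 1521. The same refits gave 128 (without 1506) to 319 (without 1517) genes higher on both backgrounds and 15 (without 1529) to 96 (without 1506) lower on both. Scaling also moved these counts, to 85 higher and 174 lower with edgeR and TMM, 117 lower with the same median, 143 lower by quantiles and 156 lower with the same median without 1517 (added after seeing the data). The scaling factor as a covariate gave 232 higher and 43 lower, with panel medians of 0.01 without and 0.44 with olaparib. The cause was not tested. The 12 leading higher genes kept their sign in all 347 refits, but they were picked for sign and p in these same tumors, so this is not independent evidence. They moved by more than the SE in 17, such as Clec7a at 0.49, Il1rn at 0.51 and Ly9 at 0.69 with the same median without 1517 and Csf3r at 2.38 with a background subtracted (both added after seeing the data). Of the 12 lower genes, Il17rb (0.245) and Rps6 (0.112) changed sign with tumor weights. No paired analysis was possible because the groups share no tumor numbers, and the number series (12 or 15) as a block called 0 genes (limma, 20 at an unadjusted p under 0.05 over both backgrounds). The series was uneven across groups. The combination tumors 1251 and 1270 and the vehicle tumor 1269 were numbered from 12, and all olaparib tumors from 15. On the olaparib background the block left 15 genes higher and 0 lower at an unadjusted p under 0.05 (limma), from 31 and 19. Series and ADU-S100 cannot be fully told apart there. Depth limits the low genes of tumor 1517 most, where 1 count is worth 10.5 normalized counts.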
